A study of Mus musculus with 32 samples.

Results

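Normal development of the nephron lineage was read from 6 of the 32 libraries of the series, 3 from wild-type (WT) kidneys at embryonic day E14.5 and 3 at E18.5. They were chosen by their labels, as the sorted Six2-lineage libraries without a mutant allele. All 6 came from mouse embryos of genotype Six2-TGCtg/+;Enl+/+ that also carried a Cre-activated tdTomato reporter (LSL-tdT), and RNA was taken from tdT+ cells sorted from dissociated kidneys. Six2-TGC is a transgene that drives an EGFP-Cre fusion in nephron progenitors, so the sort holds progenitors together with everything that has descended from them. Every embryo carries this transgene, which is reported to express Six3 as well, and there was no group without it. The study also made 6 sorted libraries with the ENL T1 allele, an insertion in the YEATS domain of the chromatin reader ENL. These enter below only where the stage change was compared between genotypes, in the check of the length gradient and in an alternative fit. E14.5 kidneys were dissociated with trypsin and E18.5 kidneys with collagenase II for a longer time, and no library of either stage was made the other way. Stage, enzyme and any other difference between the 2 sets of libraries therefore cannot be told apart in anything that follows. The labels do not say whether embryos were pooled or came from separate litters, so p values measure only the spread between these samples.

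The nephron is built from a cap of mesenchymal progenitors that express the transcription factor Six2. Wnt signals induce part of the cap to condense into renal vesicles, which become polarised epithelium and are then patterned by Notch signalling and segment-specific transcription factors into podocytes, proximal tubule, loop of Henle and distal tubule. Progenitors are used up as new nephrons form, while older nephrons mature and begin to transport solutes.

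Total counts were 126534792, 137888792 and 126737117 in the E14.5 libraries and 83012350, 86174988 and 76818721 in the E18.5 libraries. Levels are given as CPM, the counts of a gene relative to the size of its library, after TMM scaling, and changes as log2 fold changes of E18.5 over E14.5. Of 23130 genes tested with edgeR's quasi-likelihood test, 6034 (26.1%) were called up and 4640 (20.1%) down at E18.5, where a call needs a Benjamini-Hochberg adjusted p under 0.01 together with a change of more than 2-fold. The first principal component, taken over the genes with the most variable levels only, held 93.2% of their variance and separated the stages. The libraries of the stages did not overlap in 18244 genes, 78.9% of those tested, so a gap between stages is the common case here. *Mllt1*, the gene of ENL, stood at 217, 212 and 221 CPM at E14.5 and at 85.2, 84.3 and 93.4 CPM at E18.5, a called decrease (log2 -1.31 ± 0.06 SE). *Six3*, which the transgene is reported to express, went from 144.6 to 50.5 CPM and was called down. The X-linked *Xist* was at 0, 25.9 and 24.9 CPM at E14.5 and 0.379, 501 and 561 CPM at E18.5, so it differed between libraries of the same stage, and the labels give no sex.

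The stage change ran with transcript length. Among 13239 protein-coding nuclear genes of at least 1 CPM, the median log2 fold change was -1.06 for the 482 genes whose longest annotated transcript has at most 1000 nt and 1.14 for the 2030 genes over 6000 nt. In the shortest class 11.4% of genes were called up and 51.5% down, and in the longest class 53.3% were up and 3.6% down. In all 5 classes of length, the 3 libraries of a stage lay on the same side of those of the other stage. The same gradient was present in the T1 libraries, which shared the dissociation of their stage (median -1.27 in the shortest class and 1.11 in the longest). Each gene was therefore also tested with offsets for transcript length and GC content, added after the data had been seen. With these offsets 6463 genes (28.0% of 23122) were up and 3391 (14.7%) down, 5205 of the up and 2816 of the down calls were shared with the fit without offsets, and 5 genes were called in opposite directions. The offsets moved the median of all genes from 0.02 to 0.20 on the log2 scale. Counts with offsets are given below for the lists and families in which they differ, and each named gene whose call they change is marked.

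**Figure D1:**
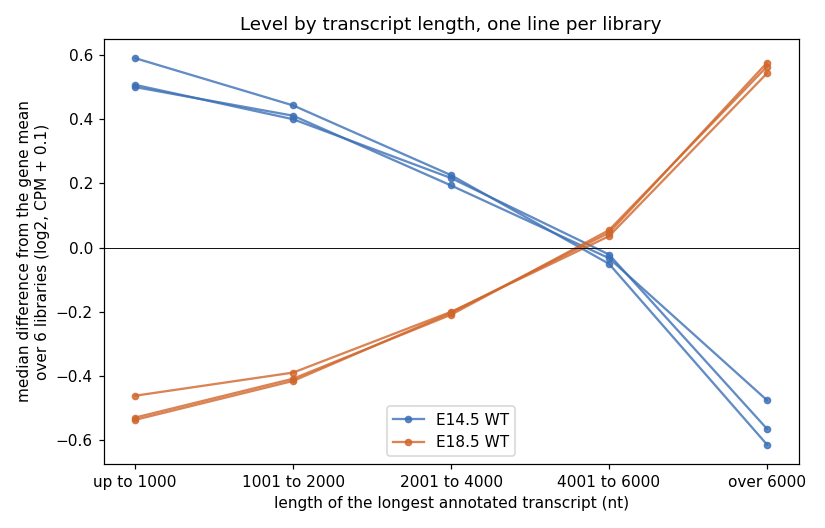
Median difference of protein-coding genes from their own mean over the 6 libraries (log2 of CPM + 0.1, vertical axis) in 5 classes of transcript length in nt (horizontal axis), with 1 line per library. The E14.5 libraries (blue) fall from between 0.499 and 0.589 in the shortest class to between -0.475 and -0.613 in the longest, and the E18.5 libraries (orange) rise from between -0.461 and -0.536 to between 0.542 and 0.575.

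Among genes of the nephron progenitor more fell than rose. Of 20 markers, all tested, 10 were called down, 2 up and 8 neither (beside 20.1% of all genes down), and with the offsets 9 were down and 3 up. Their median log2 fold change was -0.79, beside 0.02 for all genes. *Six2*, which holds progenitors in the undifferentiated state, was at 767, 882 and 803 CPM in the E14.5 libraries and at 212, 197 and 263 CPM in the E18.5 libraries. All E18.5 libraries lay below all E14.5 libraries, with a 3.65-fold lower mean (log2 -1.87 ± 0.11, adjusted p = 2.61e-07 by edgeR's quasi-likelihood test). *Osr1*, a transcription factor of the early renal mesenchyme, went from 175, 233 and 186 to 25.3, 24.97 and 36.6 CPM. *Eya1*, a cofactor of Six2 and its relatives, went from 329, 384 and 302 to 150.4, 119 and 169 CPM. The fall was 6.84-fold for *Osr1* and 2.31-fold for *Eya1*, so genes of the same progenitor state changed by unequal amounts. The steepest falls in the list were those of *Rspo3*, a secreted enhancer of Wnt signalling (from 62.8 to 7.49 CPM), *Meox2* (from 29.8 to 3.64 CPM) and the homeobox gene *Uncx* (from 531 to 68.2 CPM).

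*Cited1*, which marks the least committed progenitors, was not called. It stood at 36.9, 37.8 and 35.2 CPM at E14.5 and at 30.5, 40.2 and 44.9 CPM at E18.5, and the stages overlapped (log2 0.07 ± 0.13, adjusted p = 0.62 by edgeR's quasi-likelihood test). Its call depended on the processing, since the length and GC offsets gave a call up (1.14). *Spock2*, a proteoglycan, was the member with the largest rise (from 147 to 691 CPM), and *Fgf9*, a growth factor for progenitors, was the other member called up (from 1.799 to 4.62 CPM). *Gdnf*, the signal that draws the ureteric bud, and *Sall1*, *Itga8* and *Ncam1* did not pass the fold threshold, with log2 fold changes of 0.31, 0.39, -0.17 and 0.26. In bulk RNA a smaller share of progenitors in the sort and less RNA per progenitor cannot be told apart.

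**Figure D2:**
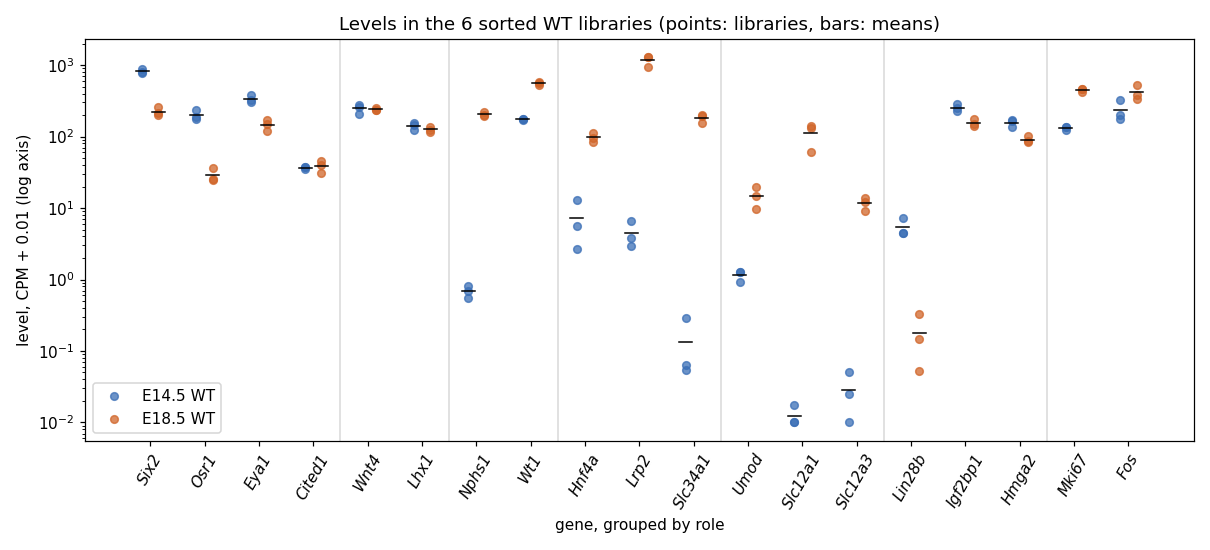
Levels of 19 genes in each of the 6 libraries, as CPM + 0.01 on a log axis, with E14.5 in blue, E18.5 in orange and a bar at each mean. *Six2* falls from between 767 and 882 to between 197 and 263, *Cited1* and *Wnt4* overlap between stages, and *Slc34a1* and *Slc12a1* are near 0 at E14.5 and at or above 61.6 CPM in every E18.5 library.

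Genes of commitment and of the renal vesicle showed little common direction. Of 20 members, 3 were called up and 5 down, beside 26.1% and 20.1% of all genes, with a median of -0.30. With the offsets 2 were up and 4 down, beside 28.0% and 14.7% of all genes. *Wnt4*, the signal that progenitors use to become epithelium, was at 255, 206 and 280.3 CPM at E14.5 and 236, 233 and 251 CPM at E18.5, with overlapping stages (log2 -0.04 ± 0.10). *Lhx1*, a transcription factor of the renal vesicle, was at 156, 125 and 143 and at 137, 118 and 122 CPM (log2 -0.17 ± 0.09), and also overlapped. Neither was called, and their adjusted p values were 0.725 and 0.122 by edgeR's quasi-likelihood test. The growth factor *Fgf8* fell (from 15.98 to 3.82 CPM), as did the Notch target *Hes5* (from 7.27 to 0.327 CPM, where 31.8% of the exon length overlaps a neighbouring gene). The adhesion gene *Cdh6* rose (from 110.4 to 618 CPM), and so did the Notch ligand *Jag1* (from 143 to 378 CPM), whose call was lost with the length and GC offsets (log2 0.81).

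Podocyte genes rose by amounts that differed over several orders of magnitude. Of 20 markers 16 were called up (80.0%, beside 26.1% of all genes), 1 down (5.0%, beside 20.1%) and 3 neither. Their median was 2.39 on the log2 scale, and the same numbers were called with the offsets. *Nphs1* encodes nephrin, the main protein of the slit diaphragm, and was at 0.542, 0.681 and 0.79 CPM at E14.5 and 202, 217 and 193 CPM at E18.5 (log2 8.24 ± 0.13). The stages did not overlap, and the rise was called (adjusted p = 7.48e-10 by edgeR's quasi-likelihood test).

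Transcription factors of the podocyte changed by smaller folds. *Wt1* was at 178, 174 and 172 CPM and then at 567, 533 and 587 CPM, a 3.22-fold rise. Against this, *Foxc2* fell 3.06-fold (from 206 to 67.2 CPM), and *Tcf21* (log2 -0.53) and *Lmx1b* (log2 0.90) were not called. Genes of the foot process and basement membrane rose further. *Col4a4* and *Col4a3*, the collagen chains of the mature glomerular basement membrane, went from 0.115 to 175 CPM and from 0.303 to 181 CPM. *Podxl*, the surface sialoprotein podocalyxin, went from 9.96 to 1858 CPM, and *Synpo*, an actin-binding protein, from 4.96 to 154 CPM.

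All 25 proximal tubule markers were called up, with and without the offsets (beside 28.0% and 26.1% of all genes). Their median was 6.72 on the log2 scale, or 6.14 with the offsets. The summed level of the list was 27.5, 29.2 and 56.2 CPM in the E14.5 libraries and 2524, 2668 and 2010.0 CPM in the E18.5 libraries. *Hnf4a*, a nuclear receptor that activates proximal tubule genes, was at 2.702, 5.66 and 13.1 CPM at E14.5 and 112, 96.8 and 84.8 CPM at E18.5. *Lrp2*, the endocytic receptor megalin, was at 2.94, 3.76 and 6.48 and 1291, 1277 and 949 CPM. *Slc34a1*, the sodium phosphate transporter of the brush border, was at 0.0445, 0.05397 and 0.275 and 192, 198 and 153 CPM. For each of these genes the third E14.5 library was the highest of its stage and still lay below every E18.5 library. That library also had the highest summed levels of macrophage and red cell genes of its stage (118 and 104.0 CPM), whose part in these values was not tested. The log2 fold changes were 3.77 ± 0.47, 8.06 ± 0.32 and 10.50 ± 0.35. For *Hnf4a* and *Lrp2* the adjusted p values were 5.31e-05 and 2.26e-08 by edgeR's quasi-likelihood test. *Slc34a1* passed the low-count filter through its E18.5 libraries and so had to differ, and no p value is given for it. Without the third E14.5 library the estimates for *Hnf4a* and *Slc34a1* were 4.52 and 11.8. With the offsets the estimate for *Lrp2*, a gene with a long transcript, was 5.75.

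Some proximal tubule genes had no count at E14.5. *Miox*, which breaks down inositol, was at 0 in all E14.5 libraries and at 4.32, 13.3 and 9.48 CPM at E18.5, at least 423-fold higher against a floor of 3 counts per library. *Kap*, the androgen-regulated kidney protein, was likewise at 0 and then at 1.503, 8.31 and 5.94 CPM, at least 245-fold higher. *Fbp1*, an enzyme of gluconeogenesis, had 2 counts in total at E14.5 and was at 45.2, 66.5 and 46.7 CPM at E18.5, a count ratio of 11200 (95% exact interval 3090 to 92200). *Pck1*, another enzyme of that pathway, went from 0.3997 to 58.6 CPM, and the amino acid transporter subunit *Slc3a1* went from 0.248 to 29.4 CPM. 26.5% of the exon length of *Slc3a1* is shared with another gene, and counting ignored strand.

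Since the proximal tubule genes moved together, the 250 bases before their annotated starts were searched on both strands for a short form of the site of HNF4, the product of a gene in the list (CAAAGTCCA), chosen after the expression values were known. Of the 25 genes, 22 matched a promoter entry of RefSeq (GRCm38.p6). Of the 22, 1 held these letters (4.55%), against 0.451% of all 27025 genes. No match says only that these letters are not in this window. The gene with a match was *Slc3a1*, whose window lies at chr17:85028097-85028346 on the forward strand and is printed 5′ to 3′ with the matching letters in capitals.
Slc3a1: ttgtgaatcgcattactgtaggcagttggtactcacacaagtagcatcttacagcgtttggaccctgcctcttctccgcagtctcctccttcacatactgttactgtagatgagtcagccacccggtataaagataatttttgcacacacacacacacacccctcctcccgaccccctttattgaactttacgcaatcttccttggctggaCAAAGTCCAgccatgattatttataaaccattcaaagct

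Of 22 genes of the loop of Henle and distal tubule, 21 were called up (95.5%, beside 26.1% of all genes). The other was called down (4.55%, beside 20.1%), and the median was 3.71 on the log2 scale. With the offsets 20 were up and 1 down. *Slc12a1*, the cotransporter of the thick ascending limb that furosemide blocks, had 1 count in all E14.5 libraries together and was at 61.6, 139 and 133 CPM at E18.5, a count ratio of 46400 (95% exact interval 8330 to 1830000). *Slc12a3*, the thiazide-sensitive cotransporter of the distal convoluted tubule, was at 0.0148, 0.0405 and 0 CPM and then at 12.1, 9.13 and 13.8 CPM. *Umod*, which encodes uromodulin, was at 0.898, 1.28 and 1.28 CPM and then at 9.67, 19.9 and 14.9 CPM, a 12.8-fold rise. The stages did not overlap for any of these genes, and the first E18.5 library was the lowest of its stage for *Slc12a1* and *Umod* but not for *Slc12a3*. The member that fell was *Ppp1r1a* (from 41.2 to 11.6 CPM), an inhibitor of protein phosphatase 1.

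**Figure D3:**
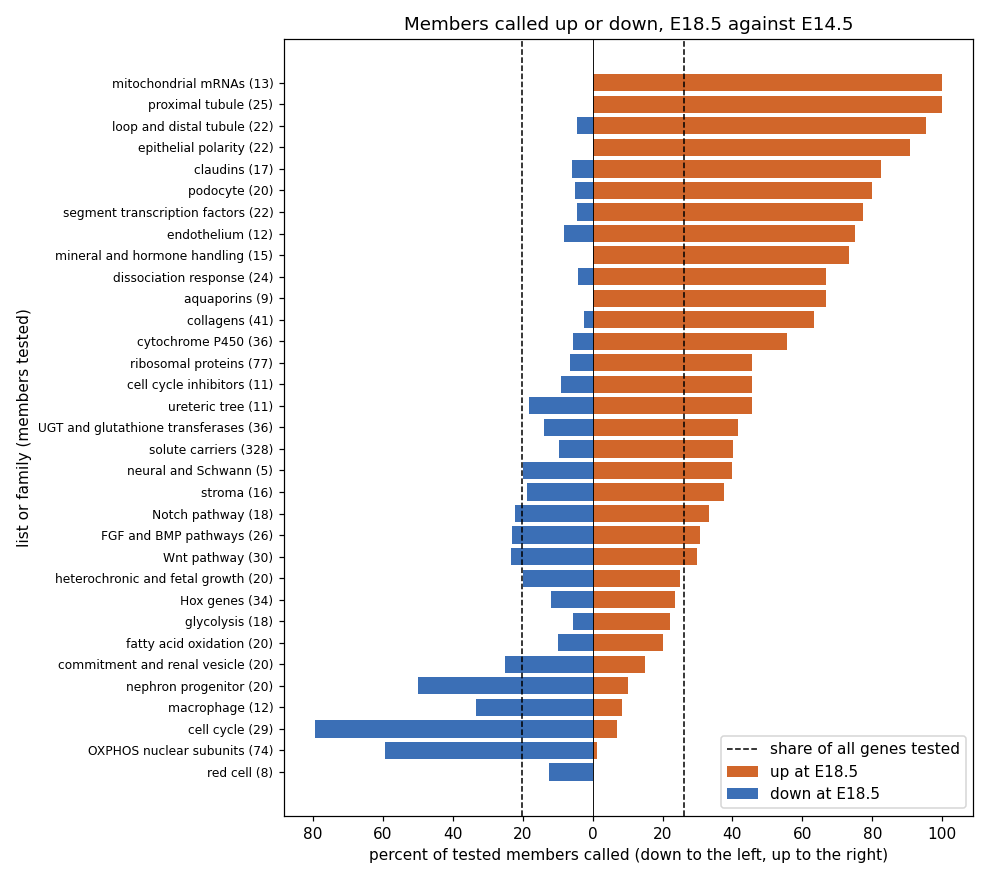
Share of tested members called up (orange, to the right) or down (blue, to the left) at E18.5 in each gene list or family, in percent, with the number of tested members after each name and dashed lines at the shares of all genes tested (26.1% up and 20.1% down). Mitochondrial mRNAs and proximal tubule genes are called up in full, and cell cycle genes reach 79.3% down.

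Transcription factors of the segments rose in 17 of 22 cases (77.3%, beside 26.1% of all genes), and 1 fell (4.55%, beside 20.1%). With the offsets 16 were up and 2 down. *Tfcp2l1* rose 35.04-fold, *Irx1* 25.1-fold, *Esrrg* 10.8-fold and *Vdr*, the vitamin D receptor, 10.6-fold. *Pou3f3* and *Maf* were called up without the offsets and not with them (log2 0.90 and 0.95).

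Genes of epithelial polarity and adhesion rose in most cases. Of 22 members 20 were called up (90.9%, beside 26.1% of all genes) and none down (beside 20.1%), with a median of 2.61. E-cadherin (*Cdh1*) went from 32.95 to 182 CPM, kidney cadherin (*Cdh16*) from 13.4 to 223 CPM and the keratin *Krt8* from 2.97 to 129 CPM. The 2 members not called were the cadherins *Cdh2* (log2 -0.52) and *Cdh11* (log2 -0.47), and *Cdh11* was called down with the offsets (-1.001). *Vim*, the intermediate filament of mesenchyme, rose 9.14-fold. Among 17 tested claudins of 23, the tight junction proteins that set which ions pass between cells, 14 were up (82.4%, beside 26.1% of all genes) and 1 down. *Cldn4* went from 0.664 to 92.3 CPM, *Cldn2* from 0.658 to 52.2 CPM and *Cldn19* from 0.1899 to 13.02 CPM, while *Cldn9* fell 4.81-fold.

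Genes of mineral and hormone handling were called up in 11 of 15 tested cases (73.3%, beside 26.1% of all genes) and down in none. *Kl*, the co-receptor for the hormone FGF23, was at 0.245, 0.391 and 0.275 CPM at E14.5 and 54.7, 56.1 and 56.1 CPM at E18.5. *Cyp27b1*, the enzyme that activates vitamin D, went from 0.241 to 17.8 CPM, and *Ace*, the angiotensin-converting enzyme, from 0.283 to 70.5 CPM. The parathyroid hormone receptor *Pth1r* was not called (from 53.1 to 52.9 CPM), and *Calb1* spread widely at E14.5 (1.25, 21.2 and 24.5 CPM). *Epo* was not tested because its counts were too low.

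Across whole families the rise was wide but not general. Of 328 solute carriers tested, out of 361 in the table, 132 (40.2%) were up and 32 down, a smaller share than in the segment lists but above the 26.1% of all genes. With the offsets 130 were up and 29 down, beside 28.0% and 14.7% of all genes. *Slc7a12* and *Slc10a2*, at 0 in all E14.5 libraries, were at least 309-fold and 160-fold higher. Cytochrome P450 genes were tested for 36 of 94. Of these, 20 were up (55.6%, beside 26.1% of all genes) and 2 down (5.56%, beside 20.1%), or 21 and 1 with the offsets. The rise was led by *Cyp2d26* (from 0.0365 to 25.9 CPM) and *Cyp2j5* (from 0.0671 to 34.4 CPM). Of 36 glucuronosyl and glutathione transferases 15 were up (41.7%, beside 26.1% of all genes) and 5 down (13.9%, beside 20.1%). With the offsets 20 were up and 1 down, beside 28.0% and 14.7% of all genes. *Gsta2* was at 0 at E14.5 and at least 1520-fold higher at E18.5, and *Gstp1* fell 3.08-fold, a call lost with the offsets. Of 9 tested aquaporins 6 were up (66.7%, beside 26.1% of all genes), with *Aqp1* of the proximal tubule from 0.161 to 53.4 CPM. The members of these families, of the claudins and of the lists above that passed the low-count filter through E18.5 alone had to differ. Such counts therefore describe the tested members only.

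Cell cycle genes fell. Of 29 genes 23 were called down (79.3%, beside 20.1% of all genes) and 2 up, at a median of -1.63 on the log2 scale, and with the offsets 21 were down and 1 up. The replication helicase gene *Mcm2* went from 448 to 115 CPM, *Tyms*, which makes thymidylate, from 189 to 45.99 CPM, the mitotic kinase *Plk1* from 112 to 20.1 CPM and the mitotic cyclin *Ccnb1* from 232 to 53.5 CPM. *Mki67*, the proliferation marker Ki-67, went against the list. It was at 125, 134 and 138 CPM at E14.5 and 469, 419 and 469 CPM at E18.5, with no overlap (log2 1.77 ± 0.07, adjusted p = 2.62e-08 by edgeR's quasi-likelihood test), and with the offsets its estimate was 0.16 and it was not called. Its longest transcript has 10061 nt. *Ccnd1*, the cyclin of cell cycle entry, was the other member called up (from 90.8 to 311 CPM, 23.4% of exon length shared).

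Among inhibitors of the cell cycle 5 of 11 tested were up (45.5%, beside 26.1% of all genes) and 1 down (9.09%, beside 20.1%). *Cdkn1b*, which encodes p27, was at 3.24, 3.97 and 2.65 CPM and then at 87.7, 107 and 106 CPM, and *Cdkn1a*, which encodes p21, went from 35.3 to 154 CPM. *Cdkn2d* fell 3.01-fold, and that call was lost with the offsets. The summed level of the cell cycle list was between 6507 and 6911 CPM at E14.5 and between 3194 and 3277 CPM at E18.5.

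Without the offsets, heterochronic genes, whose products time development, and genes of fetal growth were called at shares near those of all genes. Of 20 tested, 5 were up (25.0%, beside 26.1%) and 4 down (20%, beside 20.1%). The offsets changed this to 3 up and 8 down, beside 28.0% and 14.7% of all genes. Their median moved from -0.266 to -0.745. *Lin28b*, the RNA-binding protein that blocks let-7 maturation, was at 7.304, 4.49 and 4.42 CPM at E14.5 and 0.316, 0.139 and 0.0427 CPM at E18.5. Its mean was 31.8-fold lower at E18.5 (log2 -4.99 ± 0.49). It passed the low-count filter through its E14.5 libraries, so no p value is given. Leaving out a library gave -4.58 to -5.87. *Igf2bp1* was at 288, 249 and 225 CPM and then at 176, 149 and 139 CPM, and *Hmga2* was at 171, 165 and 135 CPM and then at 86.6, 84.6 and 101.1 CPM. Both are let-7 targets, were lower in every E18.5 library than in any E14.5 library and missed the fold threshold (log2 -0.72 and -0.79). The offsets made *Igf2bp1* a call (-2.05) and not *Hmga2* (-0.72).

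*Igf2bp3*, of the same family of RNA-binding proteins, was called down (from 131 to 38.9 CPM), and *Lin28a* was not tested for low counts. The imprinted noncoding RNA *H19* rose 9.92-fold (from 307 to 3048 CPM) and the imprinted zinc finger gene *Plagl1* 12.3-fold. The imprinted genes *Dlk1* and *Mest* fell 2.24-fold and 2.14-fold (23.1% of the exon length of *Mest* is shared, and its call was lost with the offsets). The receptors *Igf1r* and *Igf2r*, both with long transcripts, rose 8.16-fold and 5.03-fold, and the call of *Igf2r* was lost with the offsets (log2 0.91).

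Signalling genes moved in both directions at shares near those of all genes. In the Wnt pathway 9 of 30 were up (30.0%) and 7 down (23.3%), and with the offsets 7 were up and 5 down. By role, the secreted enhancers *Rspo1* and *Rspo3* fell 3.57-fold and 8.38-fold, the R-spondin receptors *Lgr4* and *Lgr5* rose 3.51-fold and 2.96-fold, and the target *Axin2* rose 4.697-fold while the nuclear effector *Lef1* fell 2.04-fold, a call lost with the offsets. The co-receptors *Lrp5* and *Lrp6* rose 12.47-fold and 5.38-fold, and the call of *Lrp6* was lost with the offsets. In the Notch pathway 6 of 18 were up and 4 down, and with the offsets 4 were up and 4 down. The receptors *Notch1* and *Notch2* went from 45.4 to 286 CPM and from 63.1 to 391 CPM, the call of *Notch2* was lost with the offsets, and the target *Heyl* fell 3.15-fold.

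In the FGF and BMP pathways 8 of 26 were up (30.8%, beside 26.1% of all genes) and 6 down (23.1%, beside 20.1%). With the offsets 9 were up and 4 down. The receptors *Fgfr3* and *Fgfr4* rose 2.96-fold and 4.32-fold, and the feedback inhibitor *Spry2* went from 6.06 to 136 CPM. The ligand *Bmp7*, which keeps progenitors alive, fell 2.13-fold, a call lost with the offsets, and the BMP target *Id3* fell 3.87-fold. The BMP antagonist *Grem1* went from 0.316 to 13.4 CPM.

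Of 34 Hox genes tested, 8 were up (23.5%, beside 26.1% of all genes) and 4 down (11.8%, beside 20.1%). With the offsets 14 were up and 3 down, beside 28.0% and 14.7% of all genes. Of those that fell, *Hoxd12* went from 74.2 to 5.79 CPM, *Hoxa10* from 297 to 93.6 CPM, *Hoxa11* from 75.3 to 18.97 CPM (35% of its exon length shared) and *Hoxd11* from 113 to 52.2 CPM, where the last call was lost with the offsets. The genes that rose included *Hoxb8* (from 1.33 to 35.7 CPM) and *Hoxb9* (from 37.3 to 131 CPM).

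Genes of energy metabolism gave opposite pictures by genome, though the fall of the nuclear genes shrank with the offsets. All 13 mitochondrially encoded mRNAs were called up, and their median was 4.19 on the log2 scale, or 5.18 with the offsets. Their summed level was between 4814 and 5654 CPM at E14.5 and between 44120 and 73910 CPM at E18.5. This sum was also taken as a description of RNA quality by library. The part of dissociation or RNA quality in its rise was not tested. Of 74 tested nuclear genes for subunits of the same respiratory complexes, 44 were down (59.5%, beside 20.1% of all genes) and 1 up. Their median was -1.18. Their median transcript length was 1025 nt, and among all protein-coding genes of at most 1000 nt 51.5% were down. The offsets left 15 down and 2 up, beside 14.7% and 28.0% of all genes, with a median of -0.35. *Ndufs7* of complex I fell 5.48-fold, and *Atp5a1*, the alpha subunit of ATP synthase, was at 1293 ± 9.79 CPM at E14.5 and 1150.2 ± 45.1 CPM at E18.5 (SD, n = 3 libraries) and was not called.

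Fatty acid oxidation genes, on which the proximal tubule draws, were mostly not called. Of 20, 4 were up (20%, beside 26.1% of all genes) and 2 down (10%, beside 20.1%), and with the offsets 6 were up and 1 down. *Ppargc1a*, the coactivator of mitochondrial genes, rose 10.7-fold, *Acsm2* 60.8-fold and *Ppara* 4.75-fold, whereas *Cpt2* and *Acaa2* fell 3.43-fold and 2.33-fold, and the call of *Acaa2* was lost with the offsets. Of 18 glycolysis genes, 4 were up (22.2%) and 1 down, and with the offsets 6 were up and 1 down, with *Hk2* and *Pgk1* up 3.33-fold and 3.804-fold and *Eno1* down 2.82-fold. Ribosomal protein genes rose in 35 of 77 cases (45.5%, beside 26.1% of all genes) and fell in 5 (6.49%, beside 20.1%). With the offsets they rose in 56 and fell in 2. These genes have many processed copies in the genome, and how reads were divided between the copies is uncertain.

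**Figure D4:**
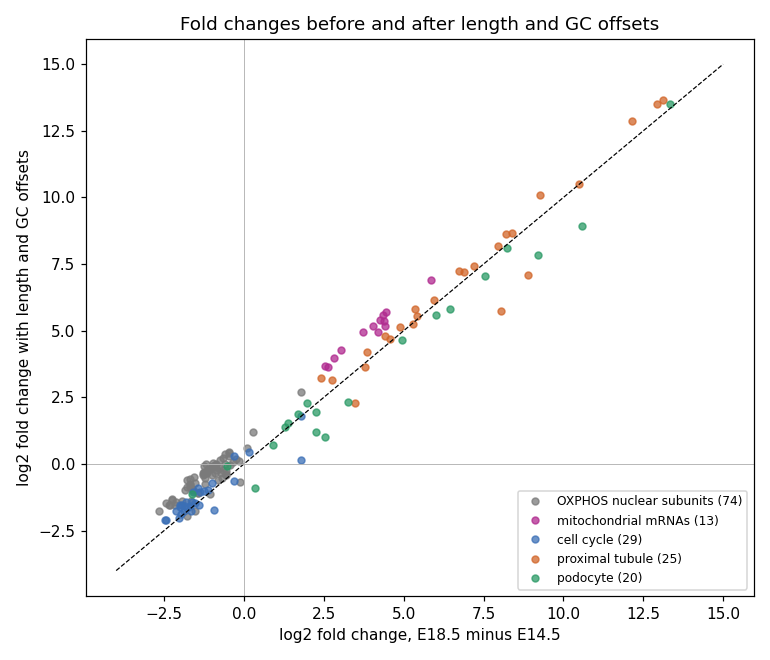
Log2 fold change of each member without (horizontal axis) and with (vertical axis) the offsets for transcript length and GC content in 5 groups of genes, with a dashed line where both are equal. Proximal tubule genes stay far above 0 on both axes, nuclear OXPHOS subunits (grey) move from a median of -1.18 to -0.351, and mitochondrial mRNAs (magenta) from 4.19 to 5.18.

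Genes known to respond to tissue dissociation and handling differed between the stages, which were dissociated in different ways. Of 24 such genes 16 were up at E18.5 (66.7%, beside 26.1% of all genes) and 1 down (4.17%, beside 20.1%), or 17 and 0 with the offsets. Their median was 1.38. Their summed level was between 4029 and 5758 CPM at E14.5 and between 9317 and 10280 CPM at E18.5. *Atf3* was at 2.07, 1.19 and 3.52 CPM and then at 271, 312 and 231 CPM, *Klf6* went from 22.2 to 971 CPM and the heat shock gene *Hspa1a* from 3.91 to 85.4 CPM. *Fos*, the best known early response gene, was at 329, 199 and 177 CPM and 534, 333 and 377 CPM and was not called (log2 0.82 ± 0.24), but was called up without the first E14.5 library (log2 1.12) and with the offsets (log2 1.16). *Egr1* was not called (log2 0.02 ± 0.22), and *Ier2* fell 2.35-fold, a call lost with the offsets. The part of this response in the changes of the other groups was not tested.

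Genes listed as markers of cells that the sort should leave out were checked in each library. Whether they were confined to such cells was not tested. Endothelial genes summed to between 42.8 and 45.3 CPM at E14.5 and between 72.7 and 86.9 CPM at E18.5. Of 12 tested, 9 were called up and 1 down, beside 26.1% and 20.1% of all genes, and the offsets left these numbers the same. Their log2 fold changes ran from -1.67 to 4.54, with a median of 2.07. Those that rose included *Pecam1* (from 0.994 to 15.7 CPM) and *Cdh5* (from 0.361 to 8.47 CPM). Stromal genes summed to between 484 and 648 CPM and between 772 and 1179 CPM. Of 16 tested, 6 were up (37.5%, beside 26.1% of all genes) and 3 down (18.8%, beside 20.1%). *Foxd1*, the defining factor of the stroma, fell 3.66-fold (from 137 to 37.4 CPM), while *Acta2* and *Col1a2* rose 11.5-fold and 7.84-fold. Ureteric genes summed to between 179 and 200.1 CPM and between 89.4 and 101.4 CPM, a sum led at E14.5 by *Hsd11b2* (from 129 to 23.9 CPM). Of 11 tested, 5 were called up (45.5%, beside 26.1% of all genes) and 2 down (18.2%, beside 20.1%), or 5 and 1 with the offsets. Those that rose were low at E14.5, among them *Aqp2*, the water channel of the collecting duct (from 0.0791 to 3.95 CPM), the keratin *Krt19* (from 1.56 to 11.4 CPM) and the ligand *Wnt7b* (from 1.32 to 9.16 CPM). The defining bud gene *Ret* was at 0.757, 4.67 and 5.86 CPM in the E14.5 libraries and *Wnt9b* at 0, 0.263 and 0.768 CPM, and *Upk3a*, *Upk1b* and *Avpr2* were too low to test.

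Blood cell genes varied most within E14.5. Macrophage genes summed to 24.6, 33.5 and 118 CPM in the E14.5 libraries and to between 42.0 and 44.5 CPM at E18.5. Of 12 tested, 1 was up (8.33%, beside 26.1% of all genes) and 4 down (33.3%, beside 20.1%). With the offsets 2 were up and 2 down, beside 28.0% and 14.7% of all genes. Red cell genes summed to 1.12, 44.9 and 104.0 CPM at E14.5 and to between 107 and 211 CPM at E18.5, and of 8 tested the embryonic globin *Hbb-y* was the 1 called, down to 0 in all E18.5 libraries. With the offsets *Hbb-bs* and *Alas2* were called up as well (log2 3.72 and 2.29). Of 9 neural genes 4 were too low to test, *Sox10* and *Foxd3* among them, and of the other 5, 2 were up and 1 down. The part of these cells in the changes above was not tested. Collagen genes rose in 26 of 41 cases (63.4%, beside 26.1% of all genes), and in 16 with the offsets (beside 28.0% of all genes).

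**Figure D5:**
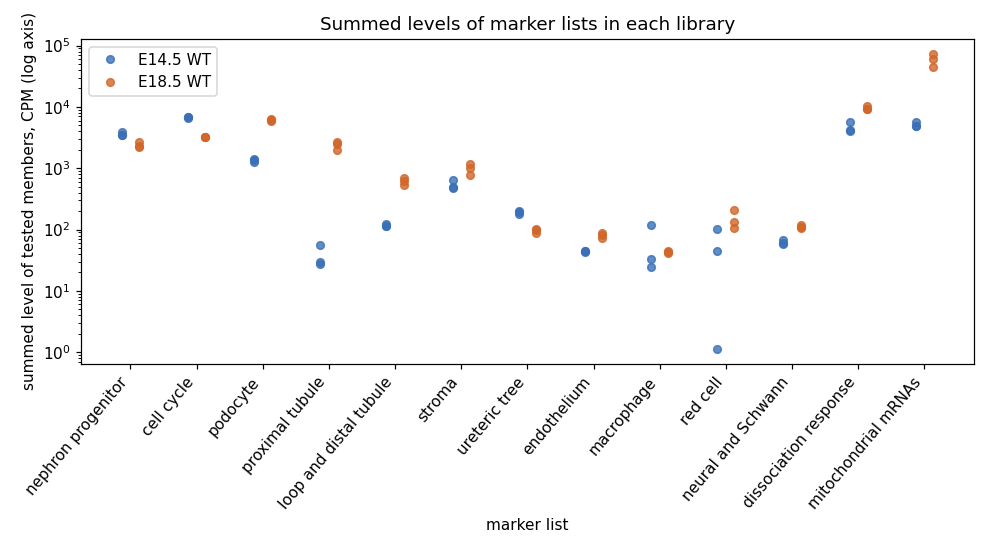
Summed CPM of the tested members of each marker list on a log axis, with 1 point per library, E14.5 in blue and E18.5 in orange. The proximal tubule sum rises from between 27.5 and 56.2 to between 2010.0 and 2668 CPM, and the macrophage and red cell sums spread most among the E14.5 libraries.

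The largest changes by rule were taken among called genes that reached a mean of 10 CPM at either stage. The 10 in the rising direction included *Slc12a1*, *Gsta2*, *Serpina6*, *Mep1b*, *Abca13*, *Fbp1*, *Atp6v1b1* and *Plau*. *Atp6v1b1*, a subunit of the proton pump of intercalated cells, was at 0 at E14.5 and at least 475-fold higher at E18.5. *Mep1b*, a brush border protease, was at least 795-fold higher. In the falling direction they were *Gm15266*, *Tmem121*, *Gm4459*, *Gm10131*, *Gm13611*, *Gm13007*, *Nanp*, *Hist1h2ad*, *Gm26623* and *Nutf2-ps2*. Of these 10 genes 5 are annotated pseudogenes, and the longest transcript among them has 1574 nt. *Gm15266*, with a transcript of 255 nt, went from 895 to 0.0232 CPM. Reads of pseudogenes can be split with their parent genes, so these values are uncertain.

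Whether the normal stage change differed in cells with the ENL T1 allele was tested as an interaction over the 12 sorted libraries. Of 25222 genes 2059 (8.16%) passed an adjusted p of 0.05 in edgeR's quasi-likelihood test, and of the 19 genes shown in the plot of levels by gene 5 were called. Without the second E18.5 library of either genotype, or without the third of T1, 3 were called. The largest was *Nphs1*, which rose by log2 8.17 in WT and 3.54 in T1, a difference of -4.64 ± 0.16 (adjusted p = 1.48e-09 by edgeR's quasi-likelihood test). It was at 0.748, 0.802 and 0.761 CPM in the E14.5 T1 libraries and at 8.47, 8.55 and 9.803 CPM in the E18.5 T1 libraries. *Lrp2* rose less in T1 as well (log2 6.45 against 7.99). *Six2*, *Osr1*, *Slc34a1* and *Slc12a1* were not called, which does not show that they changed alike.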

How the data were processed

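RNA of sorted tdT+ Six2-lineage cells was measured in 6 WT libraries, grouped by their labels into E14.5 and E18.5 with 3 each, and 6 T1 libraries entered only the interaction, the check of the length gradient and an alternative fit on 12 libraries. Per the labels and the study's methods, the authors prepared poly(A) libraries with an ultra-low-input kit, aligned paired reads to mm10 with HISAT2 and ran HTSeq in its unstranded mode. The deposited values are these counts, as whole numbers for 54752 genes, without normalization. The annotation release is not given in the sources used here, and GENCODE vM21 named 54723 identifiers.

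The analysis used edgeR 4.0.16 under R 4.3.3, with filterByExpr (minimum count 10, minimum total 15), TMM scaling and the quasi-likelihood test with Benjamini-Hochberg adjustment. A call needed an adjusted p under 0.01 together with a change of more than 2-fold, and for interactions an adjusted p under 0.05. The test was checked on data simulated for the stage comparison over 22559 genes, 200 of them changed, where 65% of genes with a true log2 fold change of 1.5, 65.8% of those at -1.5, 90% at 3, 81.1% at -3 and 5% at 0.585 were called, beside 5 false calls. In that simulation far fewer genes changed than were called between the stages, and no shift ran with transcript length. Its false calls therefore do not measure the error of the stage comparison itself. Offsets for length and GC content were smooth curves fitted in each library over 12873 genes. DESeq2 1.42.0, other scalings, filters and thresholds, a replicate block and each library left out in turn were the alternatives. The genes named are members of 23 lists and 10 name families, with 19 of them plotted in every library, and the 10 largest called changes in each direction with a mean of at least 10 CPM at either stage. *Mllt1*, *Six3* and *Xist* were added as checks of the samples, and list members used as examples were chosen after their values were seen. Values of some list members and largest changes, and 1 further promoter motif, are not reported here, while counts and medians of lists cover all members tested. The members and lists were chosen with earlier results of these data known. Intervals and floors of 3 counts cover counting error only, and 1 library's 3 counts are worth between 0.0202 and 0.0427 CPM. Same-stage libraries correlated at 0.982 to 0.986, and none was a copy of another. Figures were drawn with matplotlib 3.10.9.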

Additional observations from a re-analysis of the deposited data

Results flagged for a closer look

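Of the 19 genes plotted in every library, 5 had a stage change that differed between the WT and T1 libraries in the interaction test over 12 libraries. Over all genes 2059 of 25222 (8.16%) were called (edgeR's quasi-likelihood test, Benjamini-Hochberg adjustment). Each of the 5 is given as the change in T1 minus that in WT on the log2 scale. *Nphs1* differed by -4.64 ± 0.16 (SE) and *Lrp2* by -1.54 ± 0.34 (adjusted p = 0.0128), and both rose in both genotypes. *Cited1* differed by -1.51 ± 0.20 (adjusted p = 3.29e-04) and was at 18.3, 17.5 and 16.8 CPM at E14.5 and 4.96, 6.25 and 7.299 CPM at E18.5 in T1. *Wnt4* differed by 0.567 ± 0.13 (adjusted p = 0.0182) and was at 321, 325 and 278 CPM and then at 399, 445 and 419 CPM in T1. *Igf2bp1* differed by 0.557 ± 0.12 (adjusted p = 0.0138) and was at 333, 324 and 328 CPM and then at 280.2, 279 and 279 CPM in T1.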

How the results depend on the processing

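Depth limits genes near 3 counts per library, whose fold changes are given as bounds or count ratios. The counts of all called genes ran from 4460 to 7809 up and from 3391 to 7471 down over the alternatives, with 7036 down at an adjusted p under 0.05 and a fold over 1.5 and 7471 with no fold threshold. Leaving out each library in turn gave 5539 to 5974 up and 4453 to 4651 down. Libraries with equal replicate numbers were not treated as pairs in the main fit, and their deviations correlated at 0.0107, -0.0204 and -0.0318. Whether they shared a preparation was not tested. With the replicate number as a block 5528 genes were up and 4360 down, the Wnt pathway median was -0.037, and the calls of all 19 genes shown per library held. The cause of the shifts that follow was not tested.

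The direction of *Cited1* and *Wnt4*, which were not called, turned with the setting. *Cited1* was -0.143 with scaling by library size only, -0.00133 in the fit on 12 libraries and between -0.068 and 0.188 with a library left out. *Wnt4* was 0.000867 with RLE size factors, 0.0704 among genes over 1 CPM and between -0.18 and 0.0348 with a library left out. The Wnt pathway median turned to 0.0697 among genes over 1 CPM.

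Medians of log2 fold changes moved beyond the spread between libraries as follows. With length and GC offsets they were 0.46 for Hox genes, 0.563 for the Notch pathway, -0.351 for nuclear OXPHOS subunits, 1.64 for UGT and glutathione transferases, 0.555 for cell cycle inhibitors, -1.52 for cell cycle, 2.49 for claudins, 0.744 for collagens, 1.78 for cytochrome P450, 1.87 for dissociation response, 0.686 for glycolysis, -0.745 for heterochronic and fetal growth genes, 5.18 for mitochondrial mRNAs, 2.11 for podocyte, 6.14 for proximal tubule, 1.6 for ribosomal proteins and 0.575 for solute carriers. With scaling by library size only they were -0.31 for FGF and BMP pathways, -0.0924 for Hox genes, 0.175 for Notch, -1.39 for OXPHOS, -0.445 for Wnt, 0.586 for cell cycle inhibitors, -1.84 for cell cycle, -0.51 for commitment and renal vesicle, 1.42 for cytochrome P450, 0.24 for fatty acid oxidation, 0.331 for glycolysis, -0.479 for heterochronic genes, 2.18 for podocyte, 0.757 for ribosomal proteins and 0.513 for solute carriers. Among genes over 1 CPM they were 0.501 for Notch, -1.07 for OXPHOS, 0.357 for UGT and glutathione transferases, 4.29 for aquaporins, 0.912 for cell cycle inhibitors, -1.51 for cell cycle, 0.594 for fatty acid oxidation, 0.655 for glycolysis, -0.152 for heterochronic genes, 1.06 for ribosomal proteins, 0.6 for solute carriers and 1.61 for the ureteric tree. In the fit on 12 libraries they were -1.25 for OXPHOS, -1.7 for cell cycle, 0.895 for ribosomal proteins and 0.651 for solute carriers, and with no low-count filter 0.917 for ribosomal proteins. With a library left out the ranges were 3.51 to 4.04 for loop and distal tubule, 3.91 to 4.91 for mineral and hormone handling, 0.32 to 0.538 for fatty acid oxidation, -1.7 to -1.63 for cell cycle, 0.709 to 0.845 for cell cycle inhibitors, -0.367 to -0.241 for heterochronic genes, -0.41 to -0.0179 for Wnt, 0.638 to 0.718 for solute carriers, 3.24 to 4.62 for aquaporins and 0.907 to 0.968 for ribosomal proteins.

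The interaction was called for 5 of 19 genes, for 9 with no low-count filter, for 5 with the replicate block and for 3 to 7 with a library left out (3 without the second E18.5 library of either genotype or the third of T1).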
